A study of Drosophila melanogaster with 6 samples.

Results

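The genes described here are the caspases of Drosophila, the apoptosome scaffold that activates them and the proteins that hold them in check, measured on Affymetrix arrays in S2 cells, a macrophage-like embryonic line, after contact with fragments of dead cells. The set was chosen by name and function, as 10 genes: the initiator caspases Dronc, Strica and Dredd, the effector caspases Drice, Dcp-1 and Decay, the scaffold Dark, the inhibitors of apoptosis Diap1 and Diap2, and dnr1. A probe set was taken where the array annotation gave it a single gene and that gene was in the set. This found 8 probe sets for 7 of the 10 genes, among 18769 probe sets tested and 11982 genes. Drice, Decay and Diap1 had no such probe set and were not analysed here, so 1 of the 3 effector caspases and 2 of the 3 inhibitors were measured.

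All 6 cultures were S2 cells, maintained in medium with 10% serum and held at 25 °C in medium with 1% serum for the last 1 h. In 3 of them the cells received 25 apoptotic fragments each, and the other 3 had medium alone; each culture is 1 array, and the labels call the replicates biological. The fragments were pelleted from the supernatant of S2 cells that had spent 24 h in 1.5 µg/ml cycloheximide, an inhibitor of protein synthesis that drives these cells into apoptosis. Donor and recipient were thus the same line, and transcripts or cycloheximide brought in by the fragments and a response of the engulfing cells cannot be told apart. In such bulk RNA, a different share of cells and a different amount of RNA per cell cannot be told apart either.

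Caspases are cysteine proteases made as inactive precursors. In the fly, Dark assembles into a ring that binds Dronc through their caspase recruitment domains, and active Dronc cleaves the effector caspases Drice and Dcp-1, which take the cell apart. Diap1 binds Dronc and the effectors and is displaced by the antagonists Reaper, Hid and Grim. Dredd, the relative of mammalian caspase-8, works mainly in the Imd immune pathway, where Diap2 acts as a ubiquitin ligase, and Dnr1 is a RING finger protein that restrains Dredd and Dronc. Transcript levels say nothing of whether any of these proteases was cleaved or active.

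The deposited value is 1 log2 number per probe set and array. Of the 18769 probe sets, 11528 (61.4%) differed by less than 0.01 log2 units across all 6 arrays; these are called flat and can show no change, while the other 7241 are called varying. Among the members 1 probe set of 8 was flat. The 6 arrays had median values of 6.45 to 6.46. Replicate 3 of medium alone stood apart: its mean correlation with the other arrays of its group was 0.990, against 0.995 for each of those and 0.997 to 0.998 among the fragment arrays. Its Act5C transcript also read 2.56 log2 units lower at the 5′ than at the 3′ probe set, a gap of 2.42 and 1.95 on replicates 1 and 2 and of 1.90 to 2.20 with fragments. It was the lowest of all 6 arrays for 5 of the 7 varying member probe sets, and for 33.6% of all varying probe sets.

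The S2 cultures showed the hemocyte transcripts of their label in part. The transcription factor genes srp and ush, the matrix genes vkg and Col4a1, and Hml, crq and drpr read between 8.54 and 11.4 on every array, but Sr-CI and NimC1 were flat, at 5.94 and 6.09. He read 5.92 to 6.0, Pxn was flat at 6.0 in 1 probe set and read 6.74 to 6.91 in the other, eater read 6.82 to 7.04 and Ppn 7.56 to 8.58. Of the 11 varying hemocyte probe sets, 1 (9.09%) passed in the fit over varying probe sets alone, where 6.85% of all varying ones did. It was that of the scavenger receptor gene crq (log2 difference -0.80, limma adjusted p = 0.00559), which did not pass over all probe sets (0.0698). Its identifier ends in _s_at, a mark explained with Diap2. Averaged over the 14 probe sets of 13 hemocyte markers, the level was 8.13 to 8.49 in medium alone and 8.27 to 8.32 with fragments. Of 10 measured markers of nerve, muscle, fat body, germline and gut, 6 were flat. The nerve gene elav read 7.70 to 8.54, above He, Pxn and eater on every array. The others that varied were bam at 6.69 to 7.98, Try29F at 6.48 to 6.98 and vas at 6.04 to 6.18. The average of the 10 was 6.44 to 6.55 in medium alone and 6.63 to 6.67 with fragments. In the fit over varying probe sets the germline gene bam (log2 difference 0.91, limma adjusted p = 0.0224) and the trypsin gene Try29F (0.38, adjusted p = 0.0185) rose. Over all probe sets neither passed (limma adjusted p = 0.181 and 0.127). In the varying fit without medium-alone replicate 1 or 2 or fragment replicate 1 or 2, neither passed (0.0580 to 0.104). The part of these markers in the results below was not tested.

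After 1 h with fragments, the transcripts of the initiator caspases Dronc and Strica were higher, by 1.19-fold and 1.59-fold, and that of dnr1 stood 1.83-fold higher with a wide error. Dredd, the third initiator, read slightly lower. Dcp-1, Dark and Diap2 overlapped between the groups. The changes of Dronc and Strica passed a limma adjusted p of 0.05 when the varying probe sets were fitted, and none of the members passed when all probe sets were.

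The count of calls depended on which probe sets shared the fit. In limma, with p-values adjusted by Benjamini-Hochberg across the 18769 probe sets, 0 of the 8 member probe sets passed, where 57 probe sets (0.304%) passed on the whole array; an unadjusted p under 0.05 was reached by 4 of the 8 and by 10.8% of all. Over the 7241 varying probe sets, 2 of 7 member probe sets passed, both higher, where 496 (6.85%) passed on the array, 2.29% higher and 4.56% lower. In that fit an unadjusted p under 0.05 was reached by 4 of the 7 and by 23.6% of all varying probe sets. With 1 array left out of the varying fit, 2 members passed without medium-alone replicate 3, where 12.1% of varying probe sets passed. Without fragment replicate 1 or 3, 1 member passed, where 1.93% and 4.39% of varying probe sets did. Without medium-alone replicate 1 or 2 or fragment replicate 2, 0 members passed, where 2.15%, 2.53% and 1.78% did. The split of the whole array rests on the scale: with the arrays set to their hybridisation spikes, described with Dredd, 1322 varying probe sets passed higher and 168 lower. The 3 fragment arrays lay wholly above the 3 arrays of medium alone for 3 of the 7 (14.7% of varying probe sets) and wholly below for 1 of the 7 (17.4%). The median log2 difference of the 7 was 0.083, against -0.0035 for all varying probe sets.

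**Figure D1:**
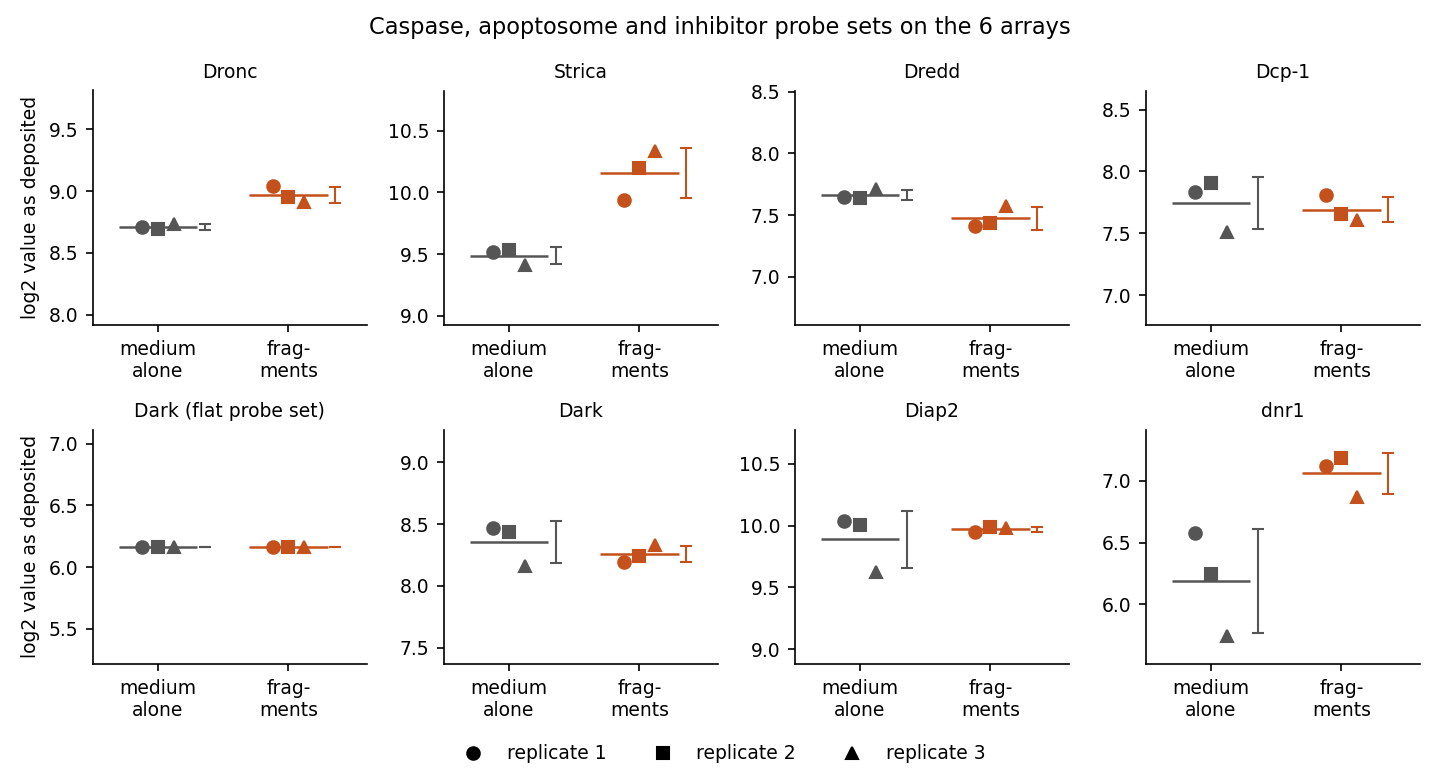
Deposited log2 values (vertical axis, the same span in each panel) of the 8 member probe sets on the 3 arrays of medium alone and the 3 with fragments. Symbols mark the replicate number, horizontal lines the group means and bars 1 SD to each side (n = 3). Dronc, Strica and dnr1 lie wholly higher with fragments and Dredd wholly lower.

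Dronc (CG8091), the initiator of the apoptosome, read 8.71, 8.69 and 8.74 in medium alone and 9.04, 8.95 and 8.91 with fragments. The groups did not overlap, and the arrays of medium alone were close to one another. The mean went from 8.71 ± 0.023 (SD, n = 3) to 8.97 ± 0.065, a log2 difference of 0.26 with an SE of 0.043 and a 95% interval of 0.15 to 0.36 over the varying probe sets (limma adjusted p = 0.0322; 0.161 over all probe sets). The difference is small against the rest of the array: 24.1% of varying probe sets differed by more in either direction. Without medium-alone replicate 1 or 2, or fragment replicate 1 or 2, it no longer passed, at an adjusted p of 0.0864 to 0.121. Without medium-alone replicate 3 the difference was 0.27 and still passed (limma adjusted p = 0.0328).

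Strica (CG7863), also known as Dream, is an initiator-type caspase whose long prodomain carries no recognised recruitment domain. It read 9.52, 9.53 and 9.41 in medium alone and 9.94, 10.19 and 10.34 with fragments. The lowest fragment array, replicate 1, was still clearly above the highest array of medium alone, and the fragment arrays were the more scattered. The mean rose from 9.49 ± 0.067 (SD, n = 3) to 10.16 ± 0.20, by 0.67 log2 units with an SE of 0.109 and a 95% interval of 0.39 to 0.94 over the varying probe sets (limma adjusted p = 0.0305; 0.207 over all probe sets). Of all varying probe sets 4.42% differed by more. Leaving out medium-alone replicate 1 or 2 or fragment replicate 2 or 3 ended the call (adjusted p = 0.0558 to 0.130), while the difference itself stayed between 0.58 and 0.78 with any single array left out.

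Dredd (CG7486) is the caspase that joins the adaptors Imd and Fadd after bacterial peptidoglycan is sensed. Its values were 7.64, 7.64 and 7.71 in medium alone and 7.41, 7.43 and 7.58 with fragments. The fragment arrays lay below, with replicate 3 close to the arrays of medium alone. The log2 difference of -0.19 had an SE of 0.055 and a 95% interval of -0.33 to -0.050 over the varying probe sets, and it did not pass (limma adjusted p = 0.115; 0.377 over all probe sets). Its direction depends on the scale. When the arrays were aligned on the mean of 18 hybridisation spike probe sets, for bacterial and phage transcripts added to every sample, all differences shifted up by 0.26 and that of Dredd became 0.072.

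The contrast among the initiators does not depend on such a scale, since it can be read within each array. Relative to Dredd and to the mean of medium alone, Dronc stood between -0.020 and 0.014 log2 units on the arrays of medium alone and between 0.29 and 0.58 on the fragment arrays, a difference of 0.45. Strica relative to Dronc stood between -0.10 and 0.066 and between 0.12 and 0.65, a difference of 0.41. In both pairs the arrays of the groups did not overlap. For Dronc and Dredd this had to follow, since Dronc lay wholly higher and Dredd wholly lower with fragments. These pairs were picked after the values were seen, so they are given as a description with no test.

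**Figure D2:**
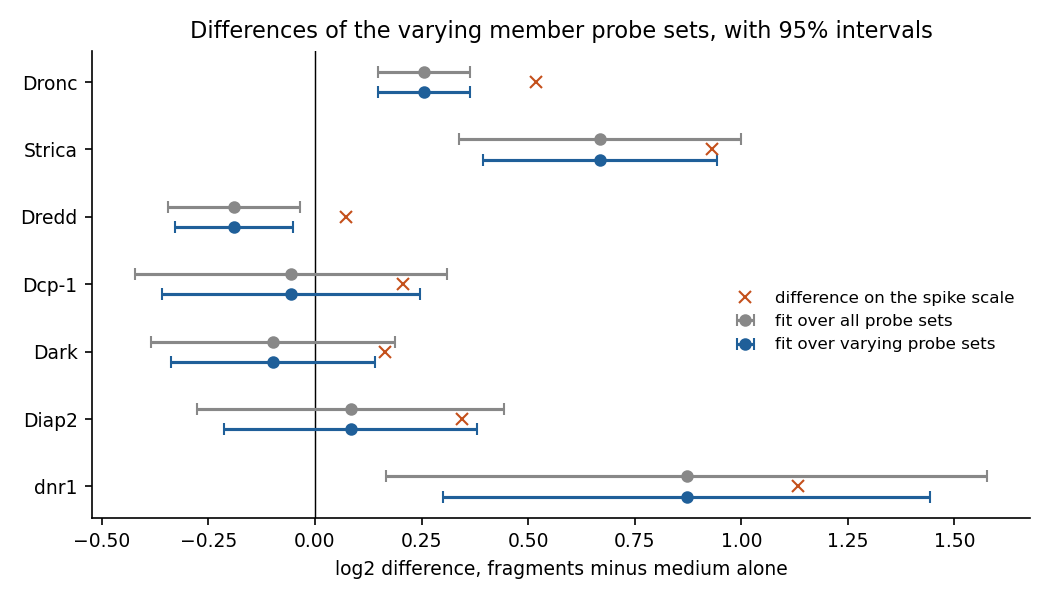
Log2 differences (horizontal axis, fragments minus medium alone) of the 7 varying member probe sets with 95% intervals from the fit over all probe sets (grey) and over varying probe sets (blue), n = 3 arrays per group. Crosses give the difference after setting each array to its hybridisation spikes, which moves each by 0.26. Intervals of Dcp-1, Dark and Diap2 span 0.

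Dcp-1 (CG5370) was the measured effector caspase, 1 of the pair of executioners that Dronc cleaves. Its values were 7.83, 7.90 and 7.51 in medium alone and 7.81, 7.66 and 7.61 with fragments. Replicate 3 of medium alone was the lowest of the 6 and the groups overlapped. The log2 difference was -0.056 with a 95% interval of -0.36 to 0.25 over the varying probe sets (limma adjusted p = 0.846) and 0.21 on the spike scale. It was -0.18 without medium-alone replicate 3 and 0.021 without medium-alone replicate 2.

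Dark (CG6829), the fly Apaf-1 and the scaffold of the apoptosome, had a pair of probe sets. The first was flat, at 6.16 on every array. The second read 8.47, 8.44 and 8.16 in medium alone and 8.20, 8.25 and 8.33 with fragments, overlapping groups in which medium-alone replicate 3 was again the lowest. The log2 difference was -0.098 (SE 0.095, 95% interval -0.34 to 0.14 over the varying probe sets, limma adjusted p = 0.616). It was -0.20 without medium-alone replicate 3 (limma adjusted p = 0.0778 in the varying fit) and 0.16 on the spike scale.

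Diap2 (CG8293), an inhibitor of apoptosis protein that binds Drice and carries ubiquitin ligase activity, read 10.03, 10.01 and 9.62 in medium alone and 9.95, 9.99 and 9.98 with fragments. The fragment arrays lay close together, with an SD of 0.019 (n = 3), whereas in medium alone replicate 3 lay far below the others. The difference of 0.083 (95% interval -0.21 to 0.38 over the varying probe sets) did not pass (limma adjusted p = 0.748) and was 0.35 on the spike scale. Without medium-alone replicate 3 it was -0.049, the opposite direction (adjusted p = 0.427 among the varying probe sets). The identifier of this probe set ends in _s_at, the array maker's mark for probes that can match more than a single transcript.

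For dnr1 (CG12489), whose product lowers Dredd and Dronc, the values were 6.58, 6.24 and 5.74 in medium alone and 7.12, 7.19 and 6.87 with fragments. The groups did not overlap, but the arrays of medium alone spanned 0.83 log2 units and lay near the median level of the flat probe sets, 6.23. The log2 difference of 0.87, from 6.19 ± 0.42 to 7.06 ± 0.17 (SD, n = 3), was the largest of the members and was exceeded by 2.03% of varying probe sets. It did not pass over all probe sets (limma adjusted p = 0.376) or over the varying ones (0.0914, with a 95% interval of 0.30 to 1.44). Without medium-alone replicate 3, the lowest array, it was 0.65 with a limma adjusted p of 0.0506 among the varying probe sets.

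**Figure D3:**
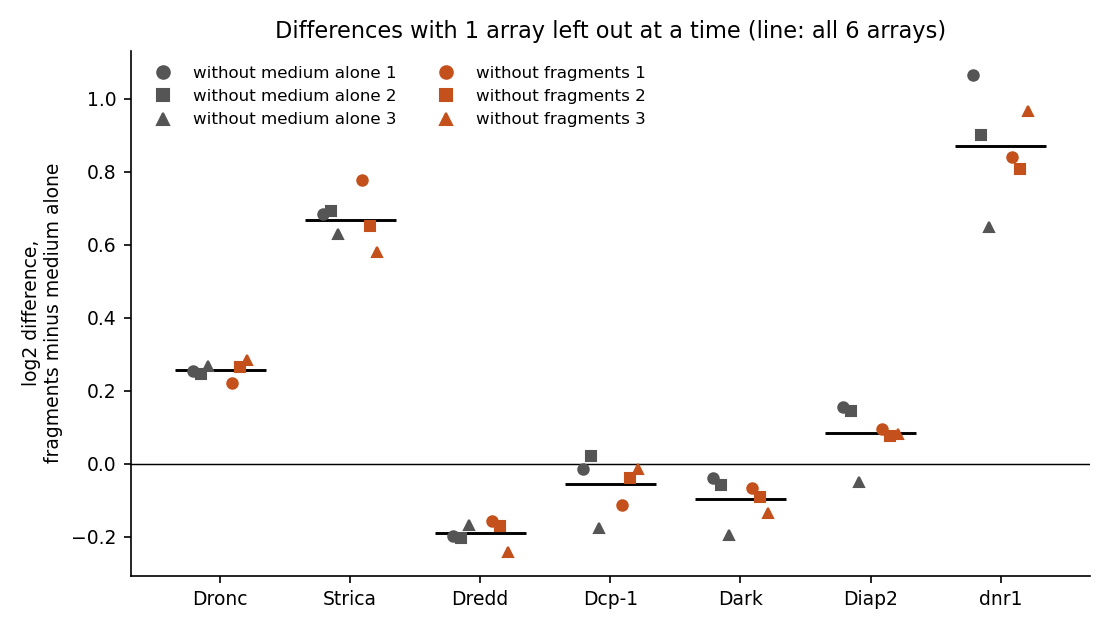
Log2 differences (vertical axis, fragments minus medium alone) of the 7 varying member probe sets with all 6 arrays (black lines) and with 1 array left out at a time (symbols by replicate number, grey for medium alone and orange for fragments). Dronc, Strica and dnr1 stay above 0 and Dredd and Dark below 0 in each case, whereas Dcp-1 and Diap2 cross it. The groups of Dronc, Strica, dnr1 and Dredd do not overlap, so leaving out 1 array could not reverse them.

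The pattern of dnr1 over the 6 arrays was closest to those of fs(1)K10, Gadd45 and CG13482, at Pearson r = 0.997, 0.996 and 0.995 among 5973 single-gene varying probe sets, 187 of which had an r above 0.95. The first of these spanned only 0.015 log2 units. Gadd45, a stress-inducible gene that feeds into MAP kinase signalling, differed by 1.13 log2 units and CG13482 by 1.14, without passing among the varying probe sets (0.120 and 0.0684 as limma adjusted p). The correlation rests on 6 arrays in 2 groups and is given as a description.

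Among the other genes of the death pathways a single probe set passed in the varying fit of the values as deposited, a fall. Of 32 genes listed, 27 were measured by 32 probe sets; rpr, hid, Cyt-c-p, Cyt-c-d and eff were not analysed here. Of the 32 probe sets 15 were flat, among them those of grim and skl, antagonists of the inhibitors of apoptosis, the Bcl-2 family genes Buffy and Debcl, the caspase gene Damm, p53 and the adaptor gene Fadd. Over all probe sets 0 of 32 passed in limma, and 8 (25.0%, against 10.8% of the array) had an unadjusted p under 0.05. The flat probe set of Drep1, with a log2 difference of 6.47e-08, was among the 8. Flat probe sets were 46.9% of the list and 61.4% of the array. In the varying fit 8 of 17 had an unadjusted p under 0.05, against 23.6% of all varying probe sets. Over the varying ones 1 of 17 passed, lower, a share of 5.88% beside the 6.85% of all varying probe sets. The median log2 difference of the 17 was -0.045.

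The gene that fell was wgn, which encodes a receptor of the TNF relative Eiger. It read 10.00, 9.82 and 9.76 in medium alone and 9.14, 9.22 and 9.27 with fragments, without overlap. The log2 difference was -0.65 (limma adjusted p = 0.0104 in the varying fit and 0.107 in the fit of all; SE 0.078 in the latter). Without fragment replicate 1 or 2 the call ended (0.0589 and 0.0611), as it did on the spike scale, where the difference was -0.39 (0.0768). The ligand gene egr had a pair of varying probe sets with differences of -0.25 and -0.13, neither of which passed (varying fit, limma adjusted p = 0.0880 and 0.420). On the spike scale they were 0.014 and 0.14, the opposite direction, and without medium-alone replicate 3 the first was -0.31 and passed in the varying fit (limma adjusted p = 0.0109).

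In the fit of all probe sets the next smallest unadjusted p-values belonged to AIF, a mitochondrial flavoprotein linked to cell death, and imd, the adaptor of Dredd. AIF read 9.07, 9.07 and 8.95 in medium alone and 8.56, 8.71 and 8.81 with fragments, wholly lower, with a difference of -0.34 that did not pass (limma adjusted p = 0.0648 among the varying probe sets; 0.0436 without medium-alone replicate 3). For imd the values were 7.30, 7.19 and 7.35 against 7.47, 7.48 and 7.59, wholly higher, with a difference of 0.24 that did not pass (0.0811). On the spike scale the difference of AIF was -0.073 and that of imd 0.50, which passed in the varying fit (limma adjusted p = 0.0164, with the limit of that scale given below). After quantile normalization AIF passed in that fit (0.0449). Dredd and imd differed in opposite directions as deposited but not on the spike scale, and Fadd, which links their products, was flat at 8.21.

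Altogether the fragment arrays lay wholly above medium alone for 4 of the 17 varying probe sets (23.5%, against the 14.7% of all varying ones) and wholly below for 5 (29.4%, against 17.4%). The others outside the range of medium alone, named after their values were seen, were the deubiquitinase gene Duba, the Diap1-lowering gene morgue and 1 of the probe sets of Acn, a caspase substrate, with differences of 0.64, 0.20 and 0.20, and the nuclease genes EndoG and Drep4, with -0.35 and -0.095 (the latter 0.17 on the spike scale), as well as the first egr probe set above. In the varying fit their limma adjusted p lay between 0.0722 and 0.270. After quantile normalization Duba passed in the varying fit (limma adjusted p = 0.0390). On the spike scale Duba (2.29e-06), morgue (0.0276) and the Acn probe sets (0.0276 and 0.0190) passed, where 20.6% of varying probe sets did. Bruce, a ubiquitin ligase gene of the list, also passed there (0.0296), though its groups overlapped as deposited. It read 8.32, 8.29 and 7.48 in medium alone and 8.24, 8.04 and 8.41 with fragments. Each array's spike offset is shared by all its probe sets. The fit pooled their spread as if independent (degrees of freedom borrowed across probe sets 740, against 1.36 as deposited), so its p-values overstate the precision. Duba stood lowest on medium-alone replicate 3, at 7.18, with 7.66 and 7.47 on replicates 1 and 2 and 7.95 to 8.26 with fragments.

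**Figure D4:**
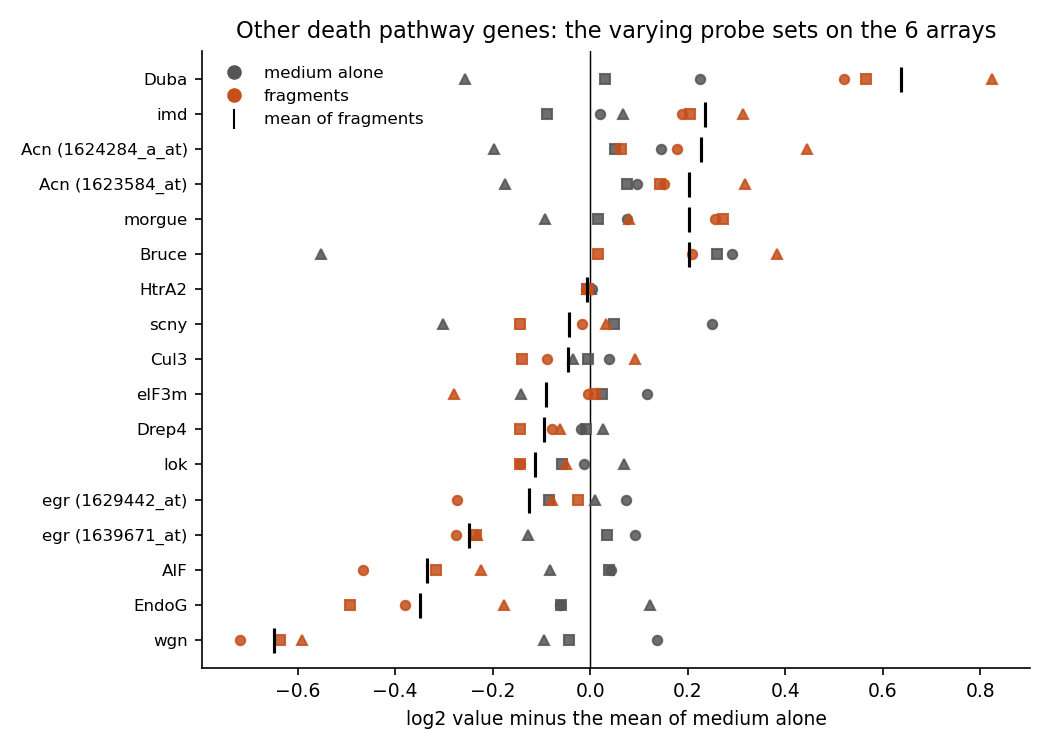
Values of the 17 varying probe sets of the other death pathway genes on each array (horizontal axis, log2 value minus the mean of medium alone; symbols by replicate number as in the plot of member values, grey for medium alone, orange for fragments; black ticks, mean of fragments). The fragment arrays of wgn lie farthest below medium alone, and those of Duba farthest above.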

How the data were processed

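RNA of 6 S2 cultures was labelled from 150 ng with a 3′ in vitro transcription kit, per the labels' protocols, and hybridised to 1 array each. The deposited values are log2 signals per probe set; the submitters' processing notes name R 2.7.2, and the summary and normalization methods are not given in the sources used here. Precision is limited by the number of arrays, which carry no read depth. Groups and replicate numbers come from the sample titles, which do not say whether cultures were grown separately, so p-values may measure technical spread. The 183 control probe sets were left out, and 18769 were fitted as deposited with limma 3.58.1 in R 4.3.3 (lmFit, eBayes, two-sided, Benjamini-Hochberg; threshold 0.05). Flat probe sets (range under 0.01) drew the prior SD to 4.38e-09, so the fit over the 7241 varying ones is printed beside it; there it was 0.0612. Both fits were tested on simulated data. Genes were named from the array annotation (402 probe sets with several genes and 4720 unlisted were not named) and updated by gene identifier through RefSeq (Release 6 plus ISO1 MT); no build is named, so no coordinates are given. Named were all members, pathway genes that passed in either fit or had the 3 smallest p, and the 3 patterns closest to the member of largest difference. Members, lists and tests were chosen with earlier results of these data known. Alternatives covered variance moderation, quantile and spike scales, ambiguous probe sets, a replicate block and leaving out each array.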

Additional observations from a re-analysis of the deposited data

How the results depend on the processing

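Over all probe sets the counts of 0 members and 0 other death pathway probe sets past the threshold became 3 and 6 when arrays were set to their spikes, with or without the flat probe sets (Dronc, Strica and dnr1 among the members); that scale adds 0.26 log2 units to each difference (spikes 10.65 ± 0.16 in medium alone, 10.38 ± 0.11 with fragments, SD, n = 3; p = 0.2 by an exact permutation test, two-sided, which cannot go below 0.1). On the spike scale 8.98% of all probe sets passed (1492 higher and 193 lower), against 0.304% as deposited. Of the varying probe sets 20.6% passed on that scale. The larger counts thus came with a rise in calls across the whole array. Without the flat probe sets the counts were 2 and 1 as deposited, where 6.85% of varying probe sets passed. After quantile normalization they were 2 and 3, where 7.5% passed. With 1 array left out the counts ranged from 0 to 2 and from 0 to 3, and the share of probe sets fitted from 0 to 12.1%. Variance trend, robust moderation, quantile normalization of all probe sets and leaving out ambiguous probe sets gave 0 and 0. In these fits 0.125% to 0.682% of probe sets passed. With the replicate number as a block 0 members passed in either fit, where 6.2% of varying probe sets did. Of the pathway probe sets 0 (all) and 1 (varying) passed, which was EndoG (limma adjusted p = 0.0457) and not wgn (0.0502). Same-numbered arrays deviated together at r = 0.44, 0.038 and 0.37. For arrays of different number r lay between -0.49 and 0.46. The labels do not state pairs, so the block was kept as an alternative, and whether the numbers mark pairs was not settled. Directions reversed for Dredd (0.072), Dcp-1 (0.21) and Dark (0.16) on the spike scale. With 1 array left out, Dcp-1 reversed without medium-alone replicate 2 (0.021, in a range of -0.18 to 0.021). Diap2 reversed without medium-alone replicate 3 (-0.049, in a range to 0.16). Dronc, Strica and dnr1 kept theirs in all 22 alternatives, but only quantile normalization could have reversed them. Their groups did not overlap, so leaving out 1 array could not, and the spike scale only adds to a rise. Changing the variance moderation, the block or the probe sets fitted leaves the difference itself the same. The causes were not tested.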
